A study of Mus musculus with 9 samples.

Results

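Levels of 6 genes of neutrophils, white cells of acute inflammation, were followed through the colon of mice given a carcinogen with or without butyrate: the S100 proteins S100a8 and S100a9, the granule proteins Ltf (lactoferrin) and Lcn2 (lipocalin 2), and the receptors Cxcr2 and Csf3r. The members were all array probes whose RefSeq accession carried one of these 6 symbols, of 18353 named genes with a probe. They had 8 probes, of which Ltf and Cxcr2 had 2 each. Total RNA of normal colonic mucosa from ICR mice, an outbred stock, was hybridised to 9 arrays with 1 dye. Every mouse, controls included, had received 1,2-dimethylhydrazine (DMH), an inducer of colon tumors, under the skin at 20 mg/kg each week over 20 weeks. The DMH group (3 arrays) drank plain water. The butyrate group (6 arrays) had 1.5% butyrate, a fermentation product of gut bacteria, in its water and was split into mice without tumors (3 arrays) and mice with tumors (3 arrays). No group without DMH was analysed here, the labels give no tumor count for the DMH group, and they do not say that the arrays came from separate animals, so the p-values measure the spread between these arrays. Group names follow titles, descriptions and source names. A separate tumor status field gives the reverse for each of the 6 butyrate samples. Should that field be right, each difference between the butyrate groups changes sign and the values given here for mice without tumors belong to mice with tumors.

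Neutrophils form in the bone marrow, fill their granules in stages and enter tissue along gradients of chemokines. S100a8 and S100a9 pair as calprotectin, which makes up much of the neutrophil cytosol and binds zinc and manganese. Ltf binds iron and Lcn2 binds the siderophores with which bacteria collect iron; both are kept in the specific granules, and Lcn2 is also made by gut epithelium in inflammation. Cxcr2 is the receptor for the CXC chemokines that draw neutrophils out of the blood, and Csf3r is the receptor for granulocyte colony-stimulating factor. Calprotectin and lipocalin 2 in stool are used as measures of gut inflammation.

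Values below are the log2 of the processed signal minus the 75th percentile of the same array, called scaled levels, so 0 is a bright probe and a difference of 1 is a factor of 2 in signal. The signal at that percentile was 188 to 444 on the 4 arrays of slide 1 (all 3 arrays without tumors and tumors array 1) and 740 to 880 on the other 5, which lay on 3 more slides. The dimmest signal that still counted as well above background had, depending on the array, a scaled level between -5.99 and -4.30. Between 57.8% and 72.5% of the spots of an array were well above background and no spot was saturated. The DMH arrays were on slides of their own, scanned on another day than all butyrate arrays.

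The RefSeq windows upstream of the 5 genes with a measurable signal are shown because each gene was called lower without tumors than in DMH. The factors named here, which act in granulocyte development and inflammation, are known to bind such promoters. Their part in the levels of these genes was not tested. Each line gives the 250 bases before the annotated start of the gene, 5′ to 3′ on the strand of the gene, in build GRCm38.p6. The windows are chr3:90668821-90669070 (plus) for S100a8, chr3:90695722-90695971 (minus) for S100a9, chr9:111019042-111019291 (plus) for Ltf, chr2:32387740-32387989 (minus) for Lcn2 and chr4:126024409-126024658 (plus) for Csf3r. Capitals mark matches, on either strand, to TTGCNNAA (C/EBP), GAGGAA (PU.1), GGGA and CC with any 4 bases between (NF-kB), TTCNNNGAA (STAT), TGANTCA (AP-1) and TATAAA (the TATA box).
S100a8: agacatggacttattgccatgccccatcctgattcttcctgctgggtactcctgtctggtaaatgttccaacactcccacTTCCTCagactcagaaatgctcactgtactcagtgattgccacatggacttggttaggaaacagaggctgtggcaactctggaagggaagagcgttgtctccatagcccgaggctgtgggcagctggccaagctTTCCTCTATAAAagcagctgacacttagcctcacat
S100a9: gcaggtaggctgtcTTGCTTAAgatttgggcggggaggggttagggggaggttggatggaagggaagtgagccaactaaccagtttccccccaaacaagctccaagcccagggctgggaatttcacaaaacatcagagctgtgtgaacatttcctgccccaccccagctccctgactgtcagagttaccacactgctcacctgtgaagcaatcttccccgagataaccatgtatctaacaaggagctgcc
Ltf: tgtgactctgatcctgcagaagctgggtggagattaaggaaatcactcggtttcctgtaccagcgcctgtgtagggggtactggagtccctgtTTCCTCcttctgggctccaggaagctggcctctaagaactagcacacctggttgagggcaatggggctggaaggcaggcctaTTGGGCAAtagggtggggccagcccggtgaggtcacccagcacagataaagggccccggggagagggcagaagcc
Lcn2: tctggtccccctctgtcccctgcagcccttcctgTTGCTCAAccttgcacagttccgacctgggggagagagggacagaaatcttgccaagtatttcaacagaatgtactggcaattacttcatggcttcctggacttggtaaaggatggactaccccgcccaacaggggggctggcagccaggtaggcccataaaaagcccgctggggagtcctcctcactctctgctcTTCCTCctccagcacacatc
Csf3r: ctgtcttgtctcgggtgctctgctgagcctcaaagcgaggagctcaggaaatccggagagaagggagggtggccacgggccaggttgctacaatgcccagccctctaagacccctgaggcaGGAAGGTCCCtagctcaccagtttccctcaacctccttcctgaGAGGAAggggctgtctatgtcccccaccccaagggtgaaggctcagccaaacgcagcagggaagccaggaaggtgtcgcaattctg
The C/EBP letters stood in the windows of S100a9, Ltf and Lcn2, at 236 to 229, 75 to 68 and 216 to 209 bases before the start. They occurred in 9.56% of the 32851 windows of this length in the table. The PU.1 letters stood in 5 of the 6 member windows, all but that of S100a9, against 23.3% of all windows. In S100a8 a PU.1 match at 36 to 31 bases before the start touched a TATA box match at 30 to 25, and no matches overlapped. NF-kB letters (17.6% of all windows) were found in Csf3r only among the members. STAT letters (7.02%) and AP-1 letters (6.75%) were in none of the 6 windows, and TATA box letters (12.4%) were in that of S100a8 alone. These matches describe the letters and do not show binding. S100a8 and S100a9 are neighbours, with 0 protein-coding genes between them.

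The calprotectin genes were lowest in butyrate mice without tumors. S100a9 had scaled levels of -2.18, -3.57 and -4.81 without tumors, -1.99, -0.14 and 2.08 with tumors, and 1.29, 1.30 and 1.36 in DMH. In scaled level all 3 arrays without tumors lay below the other 6, and the tumors group ran from just above them to above DMH. In unscaled signal S100a9 went from 14.9, on an array without tumors, to 3708, on tumors array 3. Unscaled, array 1 without tumors (62.1) was above tumors array 1 (47.2), so the separation of these arrays depends on the scaling. S100a9 was the one member well above background on all 9 arrays. S100a8 had scaled levels of -5.88, -6.16 and -7.27 without tumors, none well above background. With tumors they were -3.37, -1.30 and -0.01, and in DMH -1.65, -1.37 and -1.42. No array without tumors reached any other array, while the tumors group lay on both sides of DMH. In bulk mucosa fewer cells of a type and less RNA per cell cannot be told apart.

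**Figure D1:**
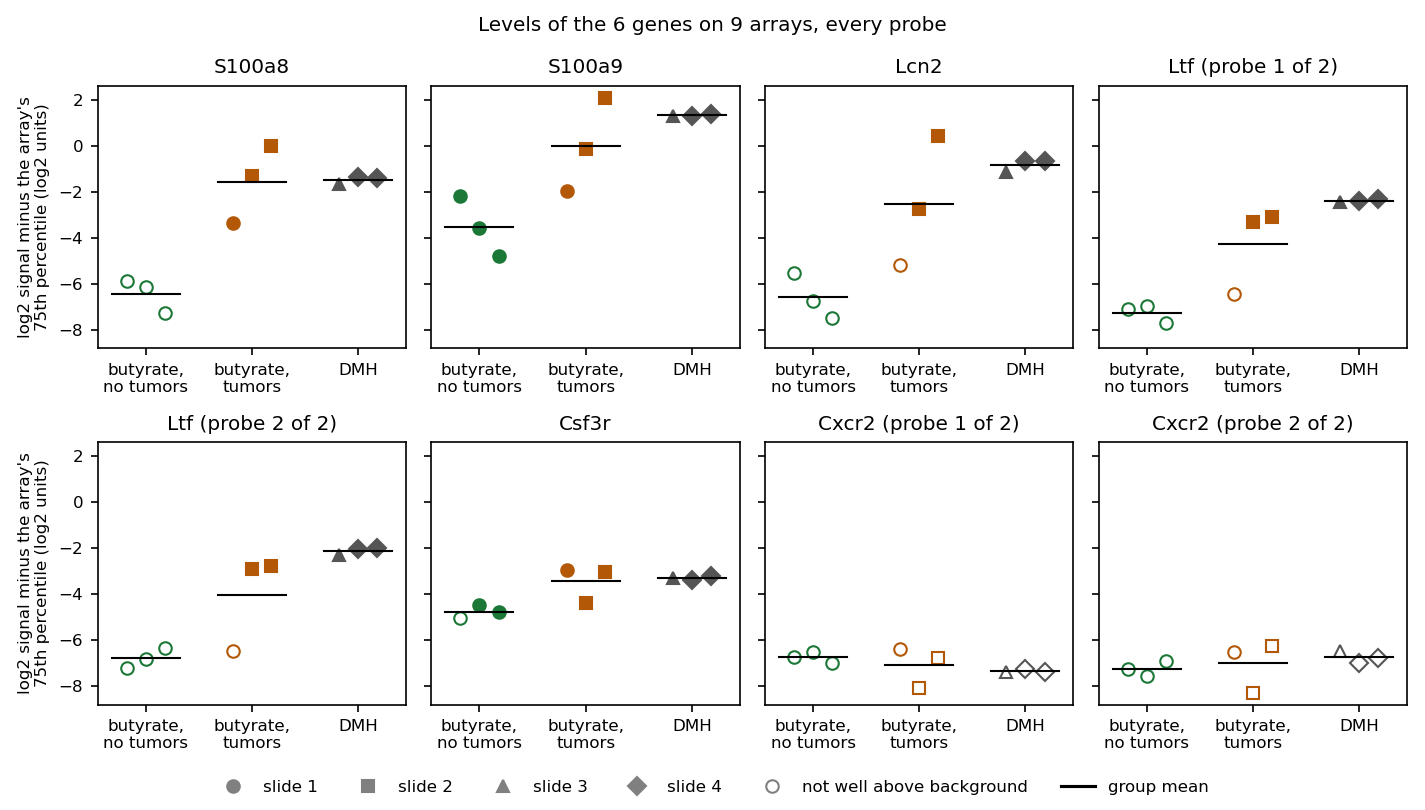
Scaled levels (log2 signal minus the 75th percentile of the array) of all 8 probes of the 6 genes in the 3 groups; each point is an array, its shape the slide, open points are not well above background and bars are group means. S100a8, Lcn2 and both Ltf probes are open on all 3 arrays without tumors, and both Cxcr2 probes are open on all 9 arrays.

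The iron-binding granule proteins had the same order of group means. Lcn2 had scaled levels of -5.53, -6.78 and -7.49 without tumors, -5.21, -2.75 and 0.40 with tumors, and -1.13, -0.67 and -0.68 in DMH. It was well above background on tumors arrays 2 and 3 and on the 3 DMH arrays only, so its order among the 4 arrays of slide 1 was not measured. Tumors array 3 was the highest of all 9. Ltf, by the brighter of its 2 probes, had scaled levels of -7.21, -6.83 and -6.35 without tumors, -6.47, -2.92 and -2.78 with tumors, and -2.29, -2.04 and -2.01 in DMH. Every butyrate array lay below every DMH array. The other Ltf probe gave -7.09, -6.99 and -7.71, then -6.46, -3.30 and -3.12, then -2.46, -2.42 and -2.33 in the same order of arrays. Both Ltf probes were well above background on the same 5 arrays as Lcn2, but unlike Lcn2, Ltf did not exceed DMH on tumors array 3.

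Of the receptors, Csf3r was measured in all groups and Cxcr2 in none. Csf3r had scaled levels of -5.06 (not well above background), -4.46 and -4.80 without tumors, -2.96, -4.38 and -3.04 with tumors, and -3.31, -3.40 and -3.21 in DMH. The arrays without tumors were the 3 lowest, with tumors array 2 just above them. Tumors array 1, on which Ltf and Lcn2 were not measurable, had the highest scaled level of the 9 for Csf3r. This rank comes from the scaling, as the 75th percentile of that array was 188. Its unscaled Csf3r signal was 24.2, below the 74.5 to 89.0 of the DMH arrays. Cxcr2 was well above background on 0 of 9 arrays with either probe, and its signals of 1.84 to 11.5 give only an upper bound on its level. With dim probes kept in the fit, no comparison called Cxcr2 (limma adjusted p from 0.595 to 0.859).

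All 5 measurable members were lower in butyrate mice without tumors than in DMH, and the arrays of the 2 groups did not overlap. Genes were tested if well above background on at least 3 of 9 arrays. S100a8, Lcn2 and Ltf, at 0 of 3 arrays without tumors, passed through the other arrays only. For these 3 genes a lower level without tumors was therefore partly set by the filter. S100a9 was 28.6-fold lower, from 1.32 ± 0.04 in DMH to -3.52 ± 1.31 (scaled level, SD, n = 3 each), a log2 difference of -4.84 ± 0.97 (SE; limma adjusted p = 0.00981). For S100a8, which was below background without tumors, the measured difference was -4.95 ± 0.75 (adjusted p = 0.00390), which amounts to at least 15.1-fold lower. Here and below, "at least" sets the bright group against a floor, the dimmest signal that counted as well above background on each dim array. This floor is approximate, as a spot can read above it and still not count. Csf3r did so on array 1 without tumors (8.44 against 8.39). Other genes given with "at least" also passed the filter through other arrays only. The same limit applies to them and to list counts that include them. Lcn2, also below background without tumors, gave -5.77 ± 1.20 (adjusted p = 0.0108), or at least 23.8-fold lower. Ltf differed by -4.68 ± 0.86 (adjusted p = 0.00737), or at least 9.74-fold lower, and its other probe by -4.86 ± 0.78 (adjusted p = 0.00489). Csf3r differed by -1.47 ± 0.36 (adjusted p = 0.0197), from -3.31 ± 0.10 to -4.77 ± 0.30 (SD, n = 3 each), a factor of 2.76. With normexp background correction and quantile scaling the difference of S100a9 was -3.38 (adjusted p = 0.0128), and that of Csf3r was -0.39 and not called (adjusted p = 0.0727). For S100a8, Lcn2 and Ltf it was then -1.43, -2.01 and -1.21, all smaller than the bounds given above. That setting adds an offset of 50 to each signal, which shrinks differences between dim values. The bounds therefore hold only for the processed signal used here. Of all 21964 features tested, 13.8% were called lower and 16.6% higher in this comparison, and 27.2% lay below DMH on every array without tumors. The median over the 5 members was -4.84, against 0.08 over all features. Against DMH, treatment cannot be told apart from slide or scan day. With slide as a random block, S100a8 alone was still called (adjusted p = 0.0438, others 0.0670 to 0.116).

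**Figure D2:**
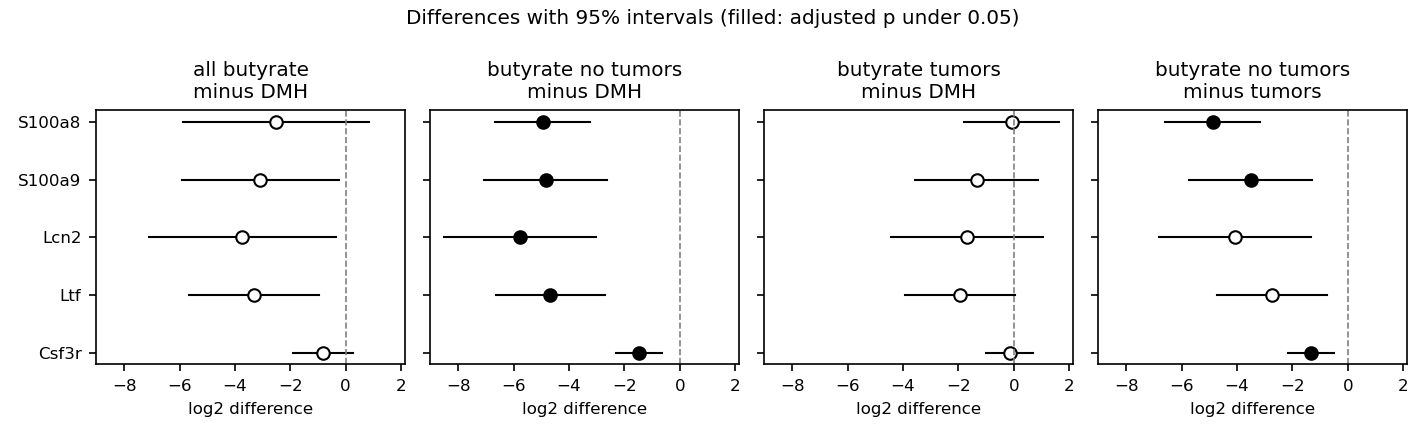
Differences in scaled level (log2, points) with 95% intervals (lines) for the 5 measurable genes in 4 comparisons, with filled points at an adjusted p under 0.05. All 5 points are filled for butyrate without tumors minus DMH, 3 for butyrate without tumors minus tumors, and none in the other 2 panels.

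Against DMH, butyrate mice with tumors showed no called member, and the smallest unadjusted p from limma was 0.0526 (Ltf). S100a8 differed by -0.08 ± 0.75 (95% interval -1.79 to 1.63, limma adjusted p = 0.954). For Csf3r the difference was -0.15 ± 0.36 (interval -0.99 to 0.68, adjusted p = 0.801). S100a9 gave -1.34 ± 0.97 (adjusted p = 0.379) and Lcn2 gave -1.69 ± 1.20 (adjusted p = 0.365). The intervals of S100a8, S100a9 and Lcn2 leave room for a change of several-fold in the tumors group. Ltf was below DMH on 3 of 3 tumors arrays, by -1.94 ± 0.86 (adjusted p = 0.172). Over all features 2.26% were called lower and 3.44% higher, and 19.5% had every tumors array below every DMH array. Without slide 1, which leaves tumors arrays 2 and 3, Ltf was called lower by -0.74 (adjusted p = 0.0425) and S100a8 was 0.82 above DMH (adjusted p = 0.193).

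Between the butyrate groups, S100a8, S100a9 and Csf3r were called lower without tumors. S100a8 differed by -4.87 ± 0.75 (limma adjusted p = 0.0134), or at least 14.3-fold. The difference of S100a9 was -3.50 ± 0.97 (adjusted p = 0.0489), a factor of 11.3, and that of Csf3r was -1.31 ± 0.36 (adjusted p = 0.0486), a factor of 2.49. Lcn2 (-4.08 ± 1.20, adjusted p = 0.0565) and Ltf (-2.74 ± 0.86, adjusted p = 0.0673) missed the threshold, although the other Ltf probe passed it (-2.97 ± 0.78, adjusted p = 0.0426). Lower calls made up 6.99% of all features and higher calls 6.56%. For 4 of the 5 members no array without tumors reached a tumors array, as for 16.8% of all features; for Lcn2 this rests on a gap below background.

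Tumors array 1 was the one array of its group on the slide of the arrays without tumors. There, the mean of the 3 arrays without tumors minus tumors array 1 was -1.52 for S100a9, against -3.50 over all arrays, and -1.81 for Csf3r, against -1.31. S100a8 was well above background on tumors array 1 and on none of the arrays without tumors. Its difference of -3.07 uses readings below background, so its size was not measured. The scaled level on tumors array 1 was -3.37, and the floors of the arrays without tumors were -5.07, -5.62 and -5.51. Lcn2 and both Ltf probes were below background on all 4 arrays of slide 1, so they give no difference within it. With slide as a fixed term in the 6 butyrate arrays no member was called (limma adjusted p from 0.0803 for S100a8 to 0.647 for Ltf, unadjusted p of 0.00574 for S100a8, 0.0181 for Csf3r and at least 0.255 for the others). The groups also differed in spread: SDs were 0.80 to 2.81 with tumors and 0.04 to 0.26 in DMH, and a fit of the 2 butyrate groups alone called 0 of 5 members (limma adjusted p of 0.0702 to 0.143, unadjusted p under 0.05 for 5) and 0 of 21964 features (unadjusted p under 0.05 for 5838). S100a9 and Csf3r lost their call without any 1 of the arrays without tumors, tumors array 3 or any 1 of the DMH arrays, which left S100a8 as the 1 call. Without tumors array 2, S100a9 alone of the 3 was lost, and without tumors array 1 there were 4 calls, all members but Csf3r.

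Taking the 6 butyrate arrays as 1 group, the comparison named in the series design, no member was called lower than DMH, against 3.35% of all features lower and 5.85% higher. Ltf came nearest (-3.31 ± 1.04, limma adjusted p = 0.0710), with 6 of 6 butyrate arrays below all 3 DMH arrays, as for 11.9% of all features. Lcn2 differed by -3.73 ± 1.50 (adjusted p = 0.129), S100a9 by -3.09 ± 1.26 (adjusted p = 0.132), S100a8 by -2.52 ± 1.50 (adjusted p = 0.278) and Csf3r by -0.81 ± 0.48 (adjusted p = 0.276). Unadjusted p-values from limma were 0.0104, 0.0335, 0.0356, 0.125 and 0.123 in the same order. In this comparison the butyrate SD was 2.46 for S100a9 and 2.92 for Lcn2, and within the tumors group alone it was 2.04 and 2.81. Leaving out tumors array 3 gave 3 calls (Lcn2, adjusted p = 0.0211, Ltf, 0.0284, and S100a9, 0.0290), and leaving out tumors array 2 gave 1 (Ltf, 0.0339). Fitted with 3 groups, the same contrast called all but Csf3r (adjusted p from 0.0194 to 0.0358).

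The members did not keep fixed proportions in the tumors group. Relative to the DMH mean, tumors array 3 was higher by 1.47 for S100a8, 1.23 for Lcn2, 0.76 for S100a9 and 0.27 for Csf3r, and lower for Ltf (-0.67). On tumors array 2, S100a8 was at the DMH mean (0.18), while Lcn2 (-1.92), S100a9 (-1.45), Csf3r (-1.08) and Ltf (-0.80) were below it. On tumors array 1 the split was widest, from 0.35 for Csf3r and -1.89 for S100a8 to -3.31 for S100a9, -4.38 for Lcn2 and -4.36 for Ltf, the last 2 not well above background. Over the 9 arrays, with each gene centred on its mean, the root mean square difference was smallest between S100a9 and Lcn2 (0.57 log2 units), then between S100a8 and S100a9 (0.74). It was largest between Csf3r and the other members (1.81 to 2.32). This measure takes in the size of the changes as well as their course. The SD over the 9 arrays was 0.82 for Csf3r and 2.30 to 2.97 for the other members. Since these pairs share the same 9 arrays, the values are a description.

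Other lists of neutrophil genes had medians nearer to 0 than the members. Members and lists were chosen with earlier results of these data known, so this order is a description. Of 7 tested specific and gelatinase granule genes, 2 fell without tumors against DMH. These were Mmp9, the gelatinase, by -3.70 ± 0.44 (limma adjusted p = 0.00178), and Pglyrp1, a peptidoglycan-binding protein, by -2.08 ± 0.37 (adjusted p = 0.00654). The list median was -2.08. Mmp9 was also lower in the tumors group (-2.06 ± 0.44, adjusted p = 0.0402) and in all butyrate arrays (-2.88 ± 0.59, adjusted p = 0.0288), where no member was called. Pglyrp1 was lower in all butyrate arrays as well (-1.64 ± 0.40, adjusted p = 0.0387). Camp and Mmp8 of the same list were well above background on 1 array each, and Ngp and Itgb2l on 0.

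Azurophil granules, the first to form, gave 1 fall among 4 tested genes, that of the serine protease Ctsg (-1.43 ± 0.32, limma adjusted p = 0.0139). Mpo, the myeloperoxidase of these granules, gave -0.57 ± 0.26 (adjusted p = 0.130). Elane, the neutrophil elastase, was well above background on 0 arrays. Among 15 tested neutrophil surface receptors 6 fell without tumors against DMH and none rose, with a median of -0.64. Examples were Clec4e, a receptor for mycobacterial glycolipid (-1.73 ± 0.25), the Fc receptor Fcgr4 (-1.26 ± 0.26), the integrin chain Itgam (-1.30 ± 0.28) and Trem1, an amplifier of myeloid signalling (-2.51 ± 0.57, at least 2.24-fold). Cybb, the catalytic chain of the NADPH oxidase of the respiratory burst, fell without tumors against DMH (adjusted p = 0.0192), as did its partner Cyba (-0.89 ± 0.18), and both fell against the tumors group. Transcription factors of granulopoiesis showed 1 fall in 6, that of Runx1 (-1.89 ± 0.53, adjusted p = 0.0301). Spi1, which encodes PU.1, gave -0.48 ± 0.35 (adjusted p = 0.315) and Cebpb gave -0.17 ± 0.17 (adjusted p = 0.478). Adjusted p of the 4 named receptors and Cyba lay between 0.00322 and 0.0149.

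**Figure D3:**
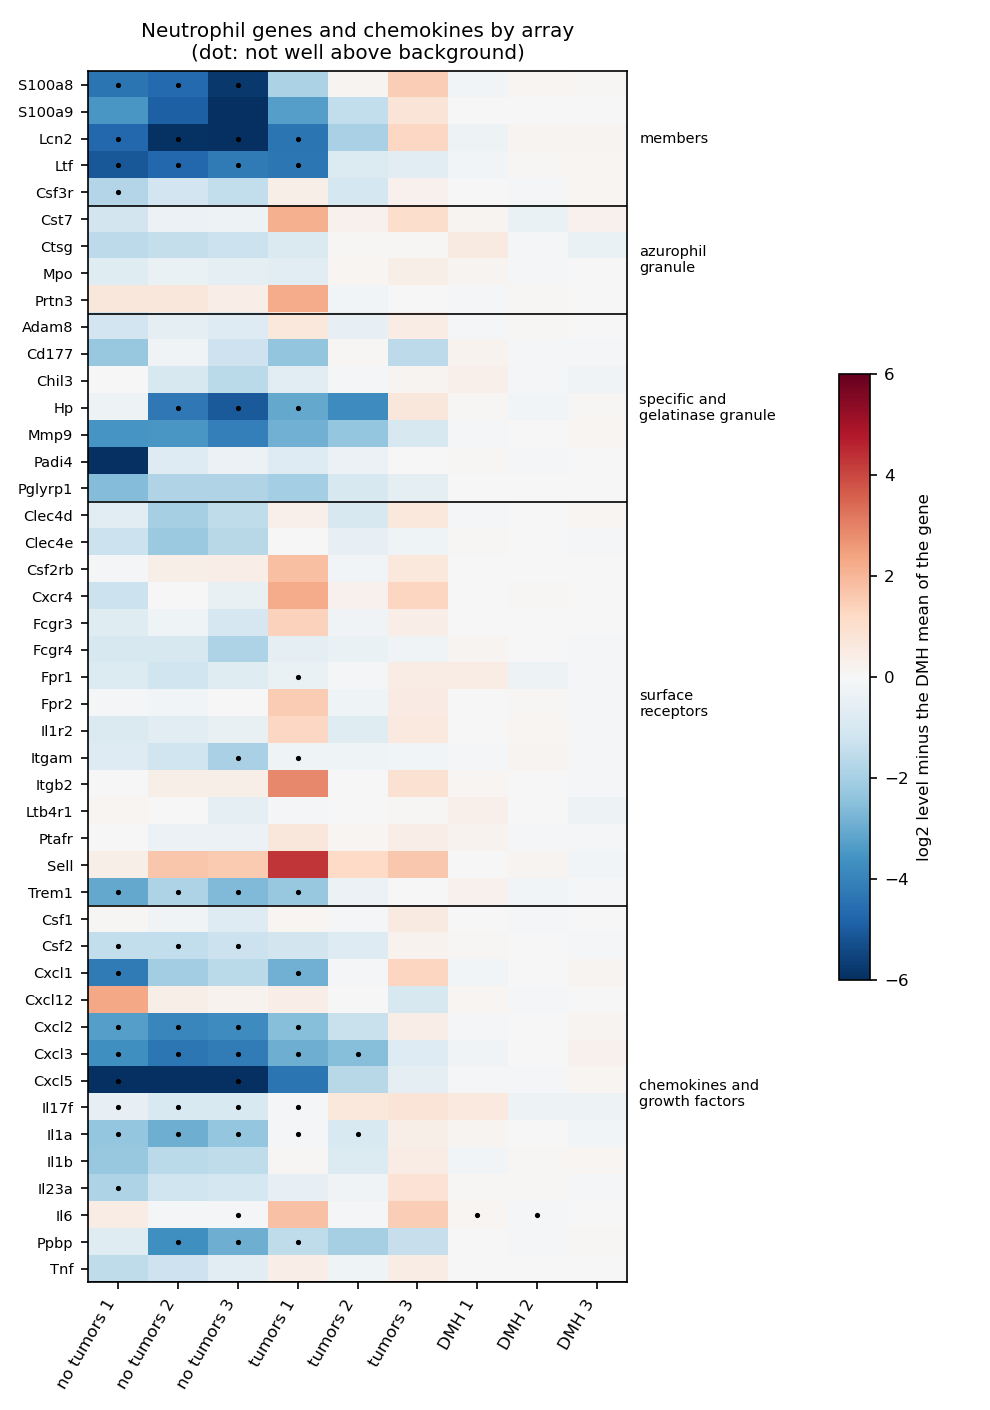
Scaled level of each gene minus its DMH mean (colour, log2 units, clipped at 6 in either direction) on the 9 arrays (columns) for the 5 measurable members and 4 gene lists (rows), with a dot where the probe was not well above background. The members are blue without tumors and on tumors array 1 except for Csf3r there, and the chemokine block holds Cxcl5, Cxcl3 and Cxcl2 in the same colours.

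Among the ligands that recruit neutrophils, of 14 tested chemokines and growth factors, 9 fell without tumors against DMH and none rose, with a median of -1.61. Cxcl5, a ligand of Cxcr2, fell most, by -7.27 ± 0.90 (limma adjusted p = 0.00196), although it was well above background on only 1 of the 3 arrays without tumors. Its scaled levels were -6.12, -5.37 and -7.53 without tumors, -3.44, -0.74 and 0.32 with tumors, and 0.87, 0.88 and 1.04 in DMH. Cxcl3 (-4.07 ± 0.51, at least 3.52-fold), Cxcl2 (-3.67 ± 0.63, at least 2.68-fold) and Il1a, an interleukin-1 (-2.52 ± 0.32, at least 1.59-fold), were below background without tumors, with adjusted p of 0.00205, 0.00584 and 0.00222. All 3 passed the filter through other arrays only, so their fall, and their part in the count of 9, was partly set by the filter. Against the tumors group 8 of the 14 were lower. In all butyrate arrays only Cxcl3 was called (-3.07 ± 0.70, adjusted p = 0.0347), and in the tumors group none. Csf3, the ligand of Csf3r, and Il17a were well above background on 0 arrays. Of 5 tested endothelial adhesion genes, Icam1, to which neutrophil integrins bind, was called, lower without tumors by -1.63 ± 0.34 (adjusted p = 0.0112). The median of that list was 0.44, and 3 of the 5 were above DMH on every array without tumors, though not called. On tumors array 1 the chemokine list's median was -0.30 relative to DMH, where that of the members was -3.31. Of the 14 genes, 8 were well above background on that array, whose 75th percentile was 188. Cxcl5, at -3.44 there, lay below all 3 DMH arrays, so the median does not describe each ligand.

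Receptors for the member proteins and other S100 genes did not follow the members as lists. Of 6 tested receptors, Itln1, an intestinal lectin that binds lactoferrin, fell without tumors (-2.83 ± 0.75, limma adjusted p = 0.0242) and in all butyrate arrays (-2.94 ± 0.62, adjusted p = 0.0302). Tlr4, a receptor of calprotectin, gave 0.12 ± 0.21 (adjusted p = 0.681) without tumors against DMH. Bsg, another such receptor, was lower in the tumors group than in DMH (-1.15 ± 0.25, adjusted p = 0.0416). Of 12 other S100 genes, S100a10 (-1.95 ± 0.29, adjusted p = 0.00385) and S100a11 (-0.90 ± 0.16, adjusted p = 0.00700) fell without tumors, with a list median of -0.01. S100a3 rose in the tumors group (1.38 ± 0.28, adjusted p = 0.0394).

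Markers of other cells moved across the same arrays. Of 15 neutrophil markers without the members, several of which (Mmp9 and Trem1 among them) are in the lists above, 14 had a probe and 9 were tested; Elane, Ngp and Cxcr1 were well above background on 0 arrays. Without tumors against DMH 5 of the 9 fell and none rose, with a median of -1.23, and the summed level (in units of the 75th percentile) was 0.994 to 3.03 without tumors, 1.53 to 3.78 with tumors and 3.996 to 4.67 in DMH. Epithelial markers, which define the labelled tissue, were all 11 well above background on all 9 arrays. Of these, 5 fell and 1 rose without tumors against DMH, and the summed levels were 696 to 856 without tumors, 451 to 814 with tumors and 1237 to 1422 in DMH. Squamous epithelium also expresses S100a8 and S100a9. Of 12 tested squamous markers 5 fell without tumors against DMH, among them the desmosomal Dsg3 (-3.47 ± 0.44, at least 4.54-fold, limma adjusted p = 0.00210) and the keratin Krt6a (-3.26 ± 0.43, at least 5.77-fold, adjusted p = 0.00242). The defining squamous gene Trp63 was well above background on 0 arrays, as were Sprr3, Ivl and Krtdap. Krt5, Krt14, Krt1, Krt10, Krt13, Sprr1a, Lor and Sbsn of the same list were well above background on all 9 arrays. Summed levels were 6.84 to 14.5, 6.55 to 11.3 and 11.04 to 11.9 in the 3 groups.

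Mast cell markers fell too, 5 of 8 without tumors against DMH, with summed levels of 0.895 to 3.63 without tumors, 1.98 to 6.43 with tumors and 8.33 to 10.03 in DMH. For monocytes and macrophages 3 of 13 fell, and the summed levels were 86.4 to 119.7 without tumors, below all other arrays, against 129.1 to 216 with tumors and 122 to 133 in DMH. Of 9 smooth muscle markers, 5 rose and none fell, with summed levels of 389 to 850, 442 to 885 and 225 to 385. Eosinophil markers (5 tested, 1 lower) and erythrocyte markers (4 tested, none called) had medians of -0.23 and -1.04. Lymphocyte markers stood out on tumors array 1, where the median over T and NK cell markers was 2.86 above DMH and that over B and plasma cell markers 2.47 above. That is the array with the highest scaled level of Csf3r, though not the highest unscaled signal. The 75th percentile of tumors array 1, 188, was the lowest of all arrays. The rank of the lymphocyte lists on this array therefore also depends on the scaling. The T and NK list summed to 25.4 there and to 2.68 to 6.08 on the other 8 arrays, and 1 of 8 of these markers and 1 of 6 B and plasma cell markers were lower without tumors against DMH. The part of these markers in the values of the members was not tested.

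**Figure D4:**
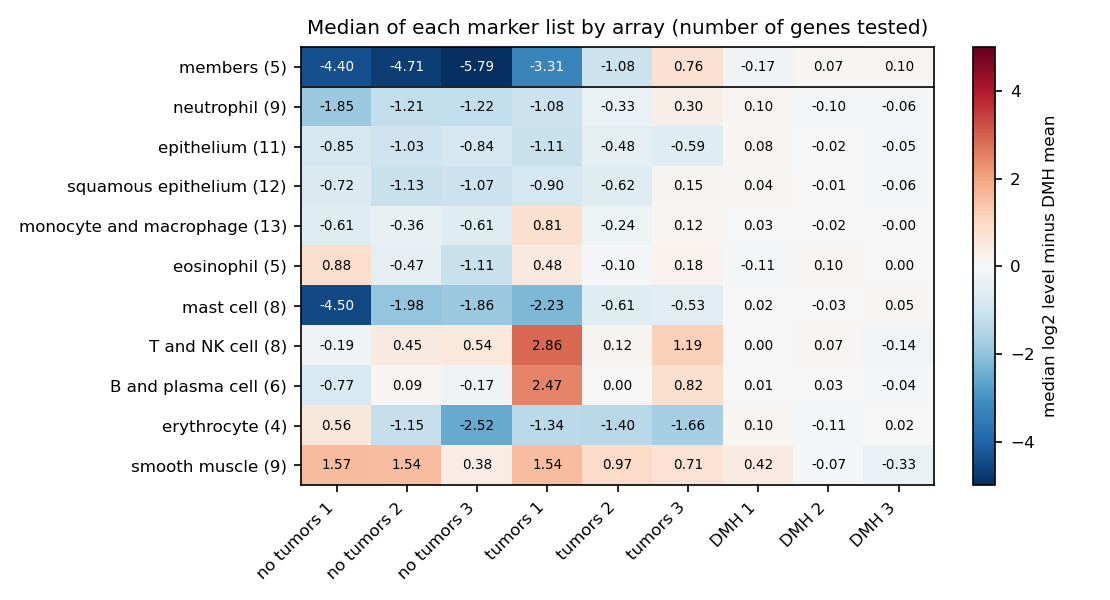
Median over each list (rows, with the number of genes tested) of the scaled level minus the DMH mean (log2 units, printed in each cell) on the 9 arrays (columns), for the 5 measurable members and 10 lists of cell type markers. The members run from -5.79 to -3.31 on the 4 arrays of slide 1, the neutrophil markers from -1.85 to -1.08, and the T and NK cell list reaches 2.86 on tumors array 1.

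Genes with the most similar course were found by the root mean square difference over the 9 arrays, each gene centred on its own mean. Nearest to the mean of the 5 members were Cxcl2 (0.41 log2 units), the arginase Arg1 (0.46), Pkhd1 (0.47), the transcription factor Sp5 (0.49) and the proton channel Otop2 (0.51), while the member mean itself had an SD of 2.15. Cxcl2, Arg1 and Pkhd1 were below background on all 3 arrays without tumors, as were S100a8, Lcn2 and Ltf. Nearest to single members were Arid3a (0.65) and Onecut2 (0.78) for S100a8, Slc22a16 (0.70) and Otop2 (0.71) for S100a9, the probe named Rps27a (0.34) and Spdl1 (0.41) for Ltf, Defa22, of a family of near-identical defensins (0.84), and Arid3a (0.915) for Lcn2, and Tg (0.18) and Tmem131l (0.22) for Csf3r. No member was among the genes searched.

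**Figure D5:**
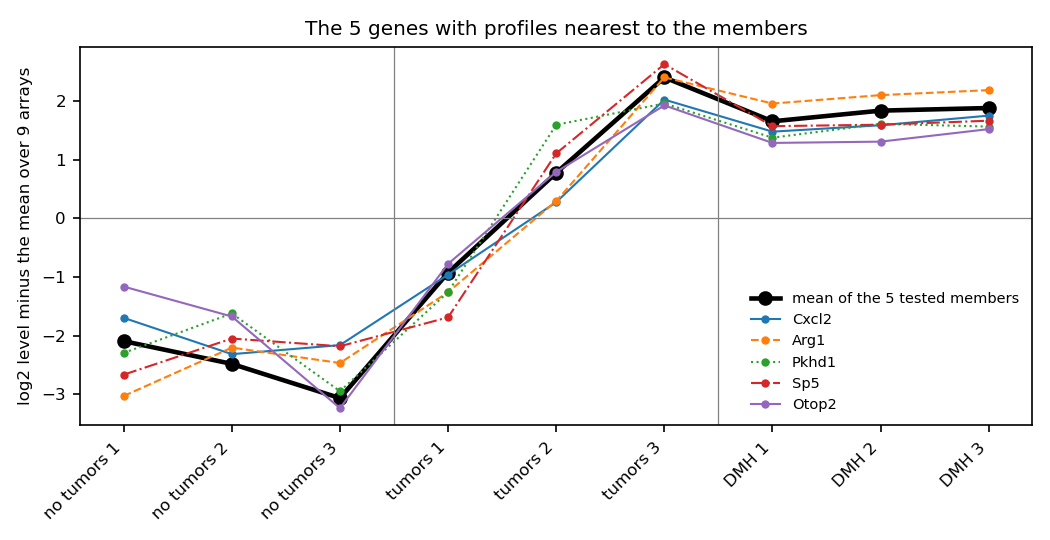
Scaled level minus the mean over 9 arrays (log2 units, vertical axis) on each array (horizontal axis) for the mean of the 5 measurable members (thick line) and the 5 genes nearest to it; lines join arrays only to guide the eye. Cxcl2 differs from the member mean by 0.41 and Otop2 by 0.51 (root mean square).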

How the data were processed

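The 9 samples of total RNA were hybridised to Agilent mouse arrays in Cy3. The deposited scanner files hold processed intensity (gProcessedSignal) with background subtracted and spatial trend removed by the authors in Feature Extraction 10.5.1.1, per the file headers, and the median intensity of each spot and of its surroundings as scanned; none was scaled between arrays. The authors also deposited a table of log2 values for 21829 probes, equal to log2 of that intensity minus 1 constant per array (SD of the difference at most 0.0091); what the constant is stays unknown. It holds 1 member, S100a9.

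Control spots (1639) and outlier spots were left out of the fits, and the 43379 other spots of an array averaged per probe. Probes well above background on at least 3 of 9 arrays, with 2 or more values per group, were kept, and the probe brightest on average stood for its gene, leaving 21964 features (15346 named). The DMH files carry another annotation version; 1 version was used, and all 8 member probes have the same accession in both. limma 3.58.1 (R 4.3.3, statmod 1.5.0; lmFit and eBayes, 2-sided) was fitted with 2 groups for all butyrate against DMH and with 3 groups otherwise, with Benjamini-Hochberg adjustment over all features and calls under 0.05. The fit was tested on simulated data. A single gene of a list is not reported here. Members and gene lists were chosen with earlier results of these data known. By rule the text names all members, up to 4 genes per list and comparison by smallest p, and the 5 and 2 genes of nearest profile. Mpo, Spi1, Cebpb, Tlr4, Trp63, genes at 0 arrays, other genes below background and squamous genes at all 9 arrays were named after their values were seen. Windows came from RefSeq, with all 6 members matched. Alternatives covered scaling, background correction, filters, probe choice, prior, weights, threshold, slide, replicate number and each array left out. Tables and plots were made in matplotlib 3.10.9, numpy 2.4.6 and pandas 2.3.3 (Python 3.11.15).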

Additional observations from a re-analysis of the deposited data

Results flagged for a closer look

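For S100a8, S100a9 and Csf3r the change against DMH differed between the butyrate groups by limma's test of the difference itself: it was lower without tumors than with tumors by -4.87 for S100a8, -3.50 for S100a9 and -1.31 for Csf3r (log2; adjusted p = 0.0134, 0.0489 and 0.0486). DMH cancels in this difference, so it is the same contrast as that between the butyrate groups above and no second result. In scaled level all 3 arrays without tumors lay below all 3 with tumors for each of the 3 genes. The 1 tumors array on slide 1 is among these, so the direction within slide 1 is no separate result. With slide as a fixed term in the butyrate arrays no member was called. No member had an array standing apart from the other 5 butyrate arrays by Dixon's test, where the largest ratio was 0.400 (Lcn2, tumors array 3) against a critical value of 0.625. The test pooled both butyrate groups, so the difference between them widens the range. It could therefore hardly single out an array that deviates within its own group.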

How the results depend on the processing

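No alternative turned the sign of a called member. Butyrate without tumors against DMH gave 5 of 5 calls; it gave 3 with a filter of at least 6 arrays (3 members tested), 1 with slide as a random block, 3 at a threshold of 0.01, and 1 of 1 in the authors' table, and leaving out single arrays gave 4 to 5. Csf3r lost its call there in 8 of 26 alternatives, S100a8 in 0 of 26. Without tumors against tumors (3 calls) gave 1 call with quantile scaling, with normexp, with no filter on dim probes, with the mean of the probes, with DMH arrays 2 and 3 averaged and with the replicate number as a block, 1 of 1 in the authors' table, 0 without scaling, at 0.01, with the 2 groups alone and with slide as a fixed term, and 5 at 0.1; single arrays left out gave 1 to 4. All butyrate against DMH (0 calls) gave 1 with normexp, 1 at 0.1, 1 without slide 1, 4 with 3 groups in the fit and 5 with array weights, and 0 to 3 with single arrays left out. Tumors against DMH (0 calls) gave 1 without slide 1 (Ltf) and 0 with any single array left out. Correlations of the deviations ran from -0.01 to 0.26 for same-numbered arrays and from -0.24 to 0.23 for other pairs. With 3 arrays per group these values cannot settle whether the numbers pair arrays. The replicate block changed no other count of member calls.

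Over all features, lower calls without tumors against DMH ranged from 511 (slide as a random block) to 5735 (array weights), against 3038. Without scaling the median of all features moved from 0.08 to -1.004 there and the calls were 5 higher and 1545 lower, against 3656 and 3038; the members' differences of -6.85 to -2.55 remained below that median. In the authors' table they were 3777 higher and 1851 lower. Between the butyrate groups the authors' table gave 3749 higher and 633 lower, against 1440 and 1536, and the tumors group against DMH 414 higher and 1542 lower, against 756 and 496. S100a8, Lcn2 and Ltf without tumors are bounds at background, and normexp with quantile scaling gave smaller differences for all 5 members, from -2.01 to -1.21 for these 3, -3.38 for S100a9 and -0.39 for Csf3r. The number of arrays limits precision.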
